A study of Mus musculus with 17 samples.

Results

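The genes described here encode inflammatory caspases and their partners in lytic and receptor-driven cell death: *Casp1*, *Casp4*, *Casp8*, *Ripk3*, *Mlkl*, *Fas*, *Pycard* and *Gsdmd*. They were chosen by name, and their members were found as the probe sets of the array whose gene symbol is one of these 8. Of the 8 genes, 6 had a probe set, with 7 probe sets among the 22626 tested and 6 genes among the 12393 that a probe set names alone. *Mlkl*, the executor of necroptosis, and *Gsdmd*, the pore-forming substrate of the inflammatory caspases, had no probe set named for them and were not analysed here. *Pycard* had 2 probe sets. Its brighter one (1417346_at) stands for the gene below, and the other (1417347_at) lay between 5.87 and 6.44 in all arrays, at the 6.7th percentile of mean signal, and was called in no comparison.

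The data are log2 expression values of whole lungs from 17 male mice, each on an Affymetrix MOE430A array of its own. Wild-type mice (C57BL/6J) were studied 22 h after intravenous saline (n = 4) and 7 h (n = 3) or 22 h (n = 3) after 20 mg/kg of intravenous *Escherichia coli* lipopolysaccharide (LPS, endotoxin). NOS2-/- mice, which are congenitally deficient in the inducible nitric oxide synthase and whose strain background the labels do not give, were studied 22 h after saline (n = 1) and 7 h (n = 3) or 22 h (n = 3) after the same LPS. Saline mice were studied at 22 h alone, so LPS at 7 h differs from saline in time as well. Every NOS2-/- response to LPS rests on 1 saline mouse whose spread was taken to equal that of the other groups. The question was how the lungs of endotoxemic mice of both genotypes differ in gene expression.

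Caspases are cysteine proteases. In the canonical inflammasome a sensor recruits the adaptor ASC, which *Pycard* encodes, and ASC brings together caspase-1, which matures interleukin-1β and interleukin-18 and cuts gasdermin D. In the non-canonical pathway the mouse protein known as caspase-11, encoded by *Casp4*, binds the lipid A of LPS inside the cell and cuts gasdermin D itself. Caspase-8 starts apoptosis below death receptors such as Fas and holds back necroptosis, the lytic death that RIPK3 starts by phosphorylating MLKL. In mice, *Casp4* is needed for much of the lethality of a high dose of LPS.

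*Casp1* and *Casp4* are neighbours. In the GRCm38.p6 annotation *Casp1* lies at chr9:5298517-5307281 and *Casp4* at chr9:5308849-5336791, with 1567 bases between them. *Casp8* lies at chr1:58795233-58847503, *Ripk3* at chr14:55784995-55788857, *Fas* at chr19:34290647-34327775 and *Pycard* at chr7:127991373-127993867. RefSeq promoter sequences of GRCm38.p6, which run from 250 bases before to 50 after a start site, matched 7 of the 8 genes. The promoters were searched on both strands for GAAA, any 2 bases and GAAA (the core of an interferon-stimulated response element), TTCNNNGAA (a gamma-activated site), TGANTCA (an AP-1 site), GGGA, any 2 bases and TTCC (an NF-kB site) and the NF-kB consensus. These letters occur in 3.44%, 8.3%, 7.81%, 1.47% and 4.51% of 32851 mouse promoters, in that order. The first NF-kB search was added after results had been seen, and the wider NF-kB consensus after the *Casp4* sequence had been read. Among the 7 genes only *Casp4* and *Fas* had a promoter with a match. The interferon-stimulated letters and the first NF-kB letters matched none of them. *Casp4* matched only the consensus chosen after its sequence had been read, so the share of 4.51% is no measure of that match. Stretches of the promoters of *Casp4*, the gene with the widest change, of *Fas*, the gene whose time course differed between the genotypes, and of *Casp1*, the neighbour of *Casp4*, are shown here, with matches in capitals.
Casp4, plus strand, chr9:5308736-5308786: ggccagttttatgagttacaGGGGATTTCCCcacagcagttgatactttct
Fas, plus strand, chr19:34290428-34290594: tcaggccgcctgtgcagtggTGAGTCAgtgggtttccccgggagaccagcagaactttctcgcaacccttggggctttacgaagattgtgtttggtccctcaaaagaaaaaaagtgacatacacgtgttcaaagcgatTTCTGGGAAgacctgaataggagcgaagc
Casp1, plus strand, chr9:5298417-5298516: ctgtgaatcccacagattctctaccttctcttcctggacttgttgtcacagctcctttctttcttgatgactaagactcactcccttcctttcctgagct
The capitals of *Casp4* are 2 overlapping matches of the NF-kB consensus, from 93 to 83 bases before the first of its listed start sites. The capitals of *Fas* are the AP-1 letters, from 211 to 205 bases before the start site, and the gamma-activated letters, from 93 to 85 bases before it. A match describes the letters and is not a measured binding site.

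The array medians lay between 8.46 and 8.55. *Sftpc*, the surfactant protein C gene of alveolar type 2 cells, had a mean of 14.85 in wild-type mice after saline, in keeping with whole lung. The *Nos2* probe set had means of 8.17 in wild-type saline mice, 8.997 in wild-type and 8.94 in NOS2-/- mice at 7 h, and 8.49 in wild-type and 9.15 in NOS2-/- mice at 22 h. Which part of the transcript it reads and which part is deleted are not stated in the sources read here, so it checks no genotype label, and genotypes are named as labelled. In all, 2 arrays stood apart. Wild-type LPS 22 h replicate 2 correlated with its group at a mean r of 0.952 across probe sets, against 0.972 or more for every other array with a group. The NOS2-/- saline mouse had a mean level of 10.20 over 7 squamous epithelium markers and 9.70 over 9 striated muscle markers, against 7.92 to 8.08 and 6.83 to 6.95 in wild-type saline mice. All arrays share 1 estimate of the spread, so leaving out wild-type LPS 22 h replicate 2 also moved calls in comparisons without its group. Where any of the 6 genes changed its call, the value without that array is given, with the share of all probe sets called in the same fit.

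**Figure D1:**
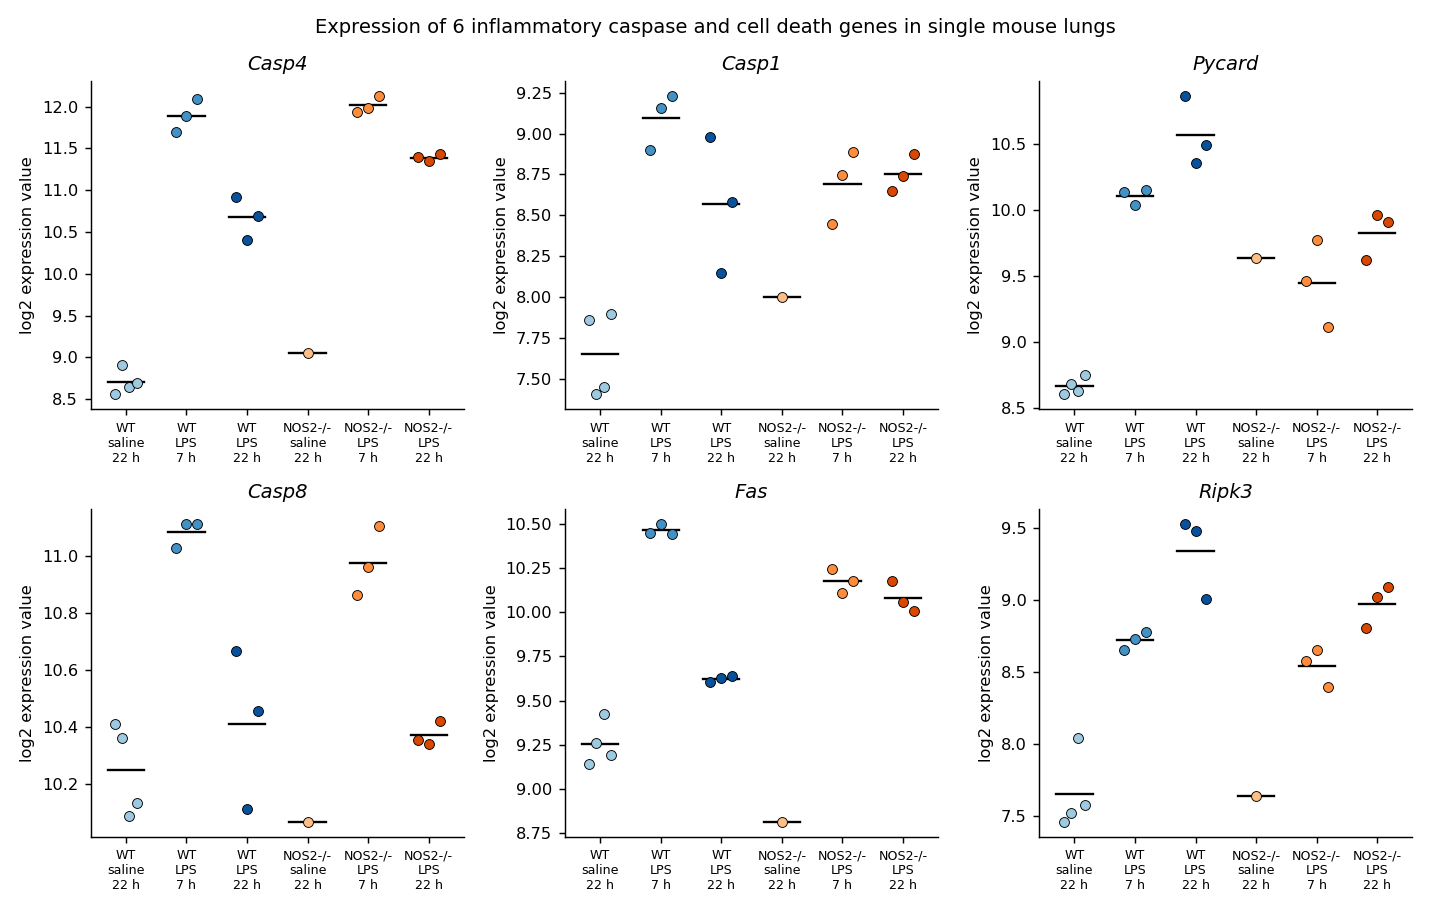
Log2 expression values (vertical axes, scaled per gene) of the 6 genes in 17 lungs, by genotype, treatment and time. Each point is 1 mouse and each bar the group mean. Wild-type LPS arrays at 7 h lie above all wild-type saline arrays for every gene. How many of all probe sets separate so was not counted. The NOS2-/- saline group is a single mouse.

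In wild-type lungs 7 h after LPS all 6 genes rose, *Casp4* most of all. A probe set was called at a limma adjusted p under 0.05 (Benjamini-Hochberg over 22626 probe sets), and 14.4% of all probe sets were called higher in this comparison. The median log2 fold change of the 6 genes was 1.32, and that of all probe sets was -0.05. No array of one group overlapped the other for any of the 6 genes, and how many of all probe sets separate so was not counted. In a whole lung, more cells of a type and more RNA per cell cannot be told apart. The summed level of 11 neutrophil markers moved with these genes: its mean lay between 9.30 and 9.57 in wild-type saline mice and between 11.82 and 11.99 at 7 h, with 11 of 11 markers higher. Over 11 monocyte and macrophage markers it lay between 9.56 and 9.62, and between 10.58 and 10.66 at 7 h, with 7 of 11 markers called higher and 3 lower and a median log2 fold change of 0.37. The part of these cells in the results was not tested.

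*Casp4*, the intracellular LPS receptor and protease, had log2 values of 8.56, 8.91, 8.65 and 8.70 in wild-type lungs after saline. At 7 h after LPS it had 11.69, 11.89 and 12.10, and at 22 h it had 10.92, 10.41 and 10.69. All 3 sets of arrays were separate, with the peak at 7 h. *Casp4* rose 9.11-fold by 7 h (3.19 log2 units with a standard error of 0.12, limma adjusted p = 2.06e-11), rank 69 of 22626 probe sets from the highest. It was still 3.92-fold above saline at 22 h (log2 fold change 1.97, adjusted p = 4.97e-09), and fell by 1.22 log2 units between the times (adjusted p = 2.38e-05).

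*Casp1*, which encodes the protease that matures interleukin-1β, had values of 7.86, 7.41, 7.45 and 7.90 after saline, 8.90, 9.16 and 9.23 at 7 h, and 8.98, 8.15 and 8.58 at 22 h. The lowest array at 22 h was replicate 2, the array that stood apart. *Casp1* rose 2.72-fold at 7 h (log2 fold change 1.44, standard error 0.18, adjusted p = 1.05e-05) and 1.89-fold at 22 h (0.92, adjusted p = 7.67e-04). Its 7 h and 22 h arrays overlapped, and the change of -0.53 between the times did not pass (95% confidence interval -0.93 to -0.12, adjusted p = 0.0928). It was -0.73 and called without wild-type LPS 22 h replicate 1 (adjusted p = 0.0161). Without replicate 2, the array that stood apart, it was -0.32 and not called (adjusted p = 0.245). The rise of *Casp1* was thus smaller than that of its neighbour *Casp4* at both times in these values, on the scale of log2 differences and with no test between probe sets.

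*Pycard*, the gene of the adaptor ASC, had values of 8.60, 8.68, 8.62 and 8.75 after saline, 10.14, 10.04 and 10.15 at 7 h, and 10.87, 10.36 and 10.50 at 22 h. It rose 2.73-fold at 7 h (log2 fold change 1.45, standard error 0.14, adjusted p = 8.86e-07) and 3.76-fold at 22 h (1.91, adjusted p = 4.56e-08). All arrays at 22 h lay above all arrays at 7 h, but the difference of 0.46 did not pass (95% confidence interval 0.14 to 0.79, adjusted p = 0.0639). It was called when any 1 of 3 arrays was left out. Without wild-type LPS 22 h replicate 2 it was 0.57 (adjusted p = 0.0129), where 7.41% of probe sets were called higher. Without NOS2-/- LPS 7 h replicate 2 or 3, which are in neither group, it stayed at 0.46 (adjusted p = 0.0373 and 0.0330).

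*Ripk3*, the kinase gene of necroptosis, had values of 7.46, 7.52, 8.04 and 7.58 after saline, 8.65, 8.73 and 8.78 at 7 h, and 9.53, 9.48 and 9.01 at 22 h. With all arrays it was the 1 gene of the 6 called higher at 22 h than at 7 h, by 0.62 log2 units (standard error 0.15, adjusted p = 0.0166). That call was lost without wild-type LPS 7 h replicate 1 or replicate 2, with differences between 0.52 and 0.78 over all single arrays left out. Against saline it rose 2.10-fold at 7 h (adjusted p = 2.57e-05) and 3.22-fold at 22 h (adjusted p = 2.04e-07).

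*Fas*, the death receptor gene, had values of 9.14, 9.26, 9.42 and 9.19 after saline, 10.45, 10.50 and 10.44 at 7 h, and 9.60, 9.63 and 9.64 at 22 h. The 3 sets were separate, with little spread within each after LPS. *Fas* rose 2.31-fold at 7 h (log2 fold change 1.21, standard error 0.07, adjusted p = 2.89e-09) and was 1.29-fold above saline at 22 h (0.37, adjusted p = 7.63e-04), after a fall of 0.84 log2 units from 7 h (adjusted p = 7.38e-06).

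*Casp8*, the initiator caspase gene of the death receptors, had values of 10.41, 10.36, 10.09 and 10.13 after saline, 11.03, 11.11 and 11.11 at 7 h, and 10.67, 10.11 and 10.46 at 22 h. It rose 1.79-fold at 7 h (log2 fold change 0.84, standard error 0.11, adjusted p = 3.03e-05) and fell by 0.67 log2 units from 7 h to 22 h (adjusted p = 0.00213). At 22 h its arrays overlapped those of saline mice, and the difference of 0.16 did not pass (95% confidence interval -0.08 to 0.41, adjusted p = 0.309). Without replicate 2 of that group the difference was 0.31 (adjusted p = 0.0119), where 19.5% of probe sets were called higher.

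By 22 h, 5 of the 6 genes were thus above saline in wild-type lungs and none below, where 12.8% of all probe sets were called higher. Between 7 h and 22 h, *Casp4*, *Fas* and *Casp8* fell and *Ripk3* rose, where 7.68% of probe sets were called lower and 3.15% higher. Neutrophil markers had a mean between 11.97 and 12.16 at 22 h and monocyte and macrophage markers one between 10.43 and 10.77, with 7 of 11 again higher than after saline and 3 lower.

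**Figure D2:**
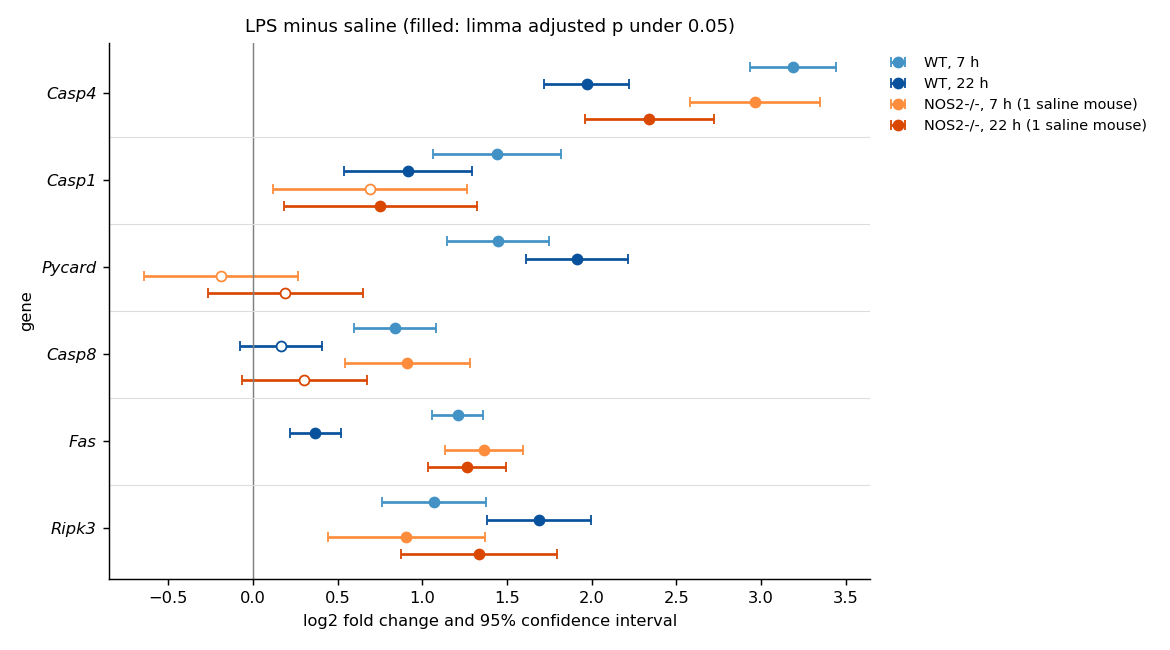
Log2 fold change of LPS against saline (horizontal axis) with its 95% confidence interval from limma, for the 6 genes in wild-type and NOS2-/- lungs at 7 h and 22 h; filled points passed an adjusted p under 0.05. *Casp4* has the highest point in each of the 4 comparisons, and the *Pycard* points of NOS2-/- mice, set against 1 saline mouse, lie at -0.19 and 0.19.

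In NOS2-/- lungs *Casp4* again had the highest rise of the 6 genes, and *Fas*, *Ripk3* and *Casp8* rose at 7 h as well. These responses are measured against 1 saline mouse, whose values were 9.05 for *Casp4*, 8.0035 for *Casp1*, 9.64 for *Pycard*, 7.64 for *Ripk3*, 8.81 for *Fas* and 10.07 for *Casp8*. At 7 h, 4 of the 6 genes were called higher, where 8.78% of all probe sets were, and none lower, where 13.7% were. *Casp4* had values of 11.93, 11.98 and 12.13 at 7 h and 11.39, 11.35 and 11.43 at 22 h, a 7.81-fold and a 5.07-fold rise (log2 fold changes 2.96 and 2.34, standard error 0.18 for both, adjusted p = 1.56e-08 and 1.75e-07). It fell between the times by 0.62 log2 units (adjusted p = 0.00718).

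*Fas* had values of 10.25, 10.11 and 10.18 at 7 h and 10.18, 10.06 and 10.00 at 22 h in NOS2-/- lungs. The sets overlapped, and the change between the times was -0.10 (95% confidence interval -0.26 to 0.06, adjusted p = 0.576). Against saline *Fas* rose 2.57-fold at 7 h and 2.40-fold at 22 h (adjusted p = 2.42e-07 and 4.90e-07).

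*Ripk3* rose 1.87-fold at 7 h and 2.52-fold at 22 h in NOS2-/- lungs (adjusted p = 0.00626 and 2.46e-04). *Casp8* rose 1.88-fold at 7 h (adjusted p = 0.00112), with a difference of 0.30 at 22 h that did not pass (95% confidence interval -0.06 to 0.67, adjusted p = 0.230), and fell by 0.61 log2 units between the times (adjusted p = 0.00673). *Casp1* had a difference of 0.69 at 7 h (95% confidence interval 0.12 to 1.26, adjusted p = 0.0805). The same difference was called without wild-type LPS 22 h replicate 1 or replicate 2 (adjusted p = 0.0409 and 0.0137), and 16.4% of probe sets were called higher without replicate 2. At 22 h *Casp1* was called higher by 0.75 at an adjusted p = 0.0485, which was lost when any 1 of 11 of the 16 other arrays was left out, with differences between 0.69 and 0.81.

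*Pycard* had values of 9.46, 9.77 and 9.11 at 7 h and 9.62, 9.96 and 9.91 at 22 h in NOS2-/- lungs. The single NOS2-/- saline value of 9.64 lay among them, and the differences of -0.19 (95% confidence interval -0.64 to 0.27) and 0.19 (-0.26 to 0.65) did not pass (adjusted p = 0.581 and 0.589). Set against the 4 wild-type saline mice instead, NOS2-/- mice were higher by 0.79 at 7 h (adjusted p = 3.84e-04) and by 1.17 at 22 h. The direction at 7 h thus changed with the saline mice used. At 22 h, 4 of the 6 genes were called higher than in the NOS2-/- saline mouse, where 11.6% of all probe sets were, and none lower, where 16.0% were. From 7 h to 22 h, 2 of the 6 were called lower in NOS2-/- lungs and none higher, where 3.16% and 4.65% of probe sets were. *Ripk3* differed by 0.43 between these times (adjusted p = 0.112), and without wild-type LPS 22 h replicate 2 it was called higher (adjusted p = 0.0395), where 11.7% of probe sets were. *Pycard* differed by 0.38 (adjusted p = 0.160), or by 0.54 without NOS2-/- LPS 7 h replicate 2 (adjusted p = 0.0451). Over all single arrays left out the *Pycard* difference lay between 0.21 and 0.54.

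Neutrophil markers had a mean of 9.65 in the NOS2-/- saline mouse, between 11.54 and 11.78 at 7 h and between 12.10 and 12.14 at 22 h.

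**Figure D3:**
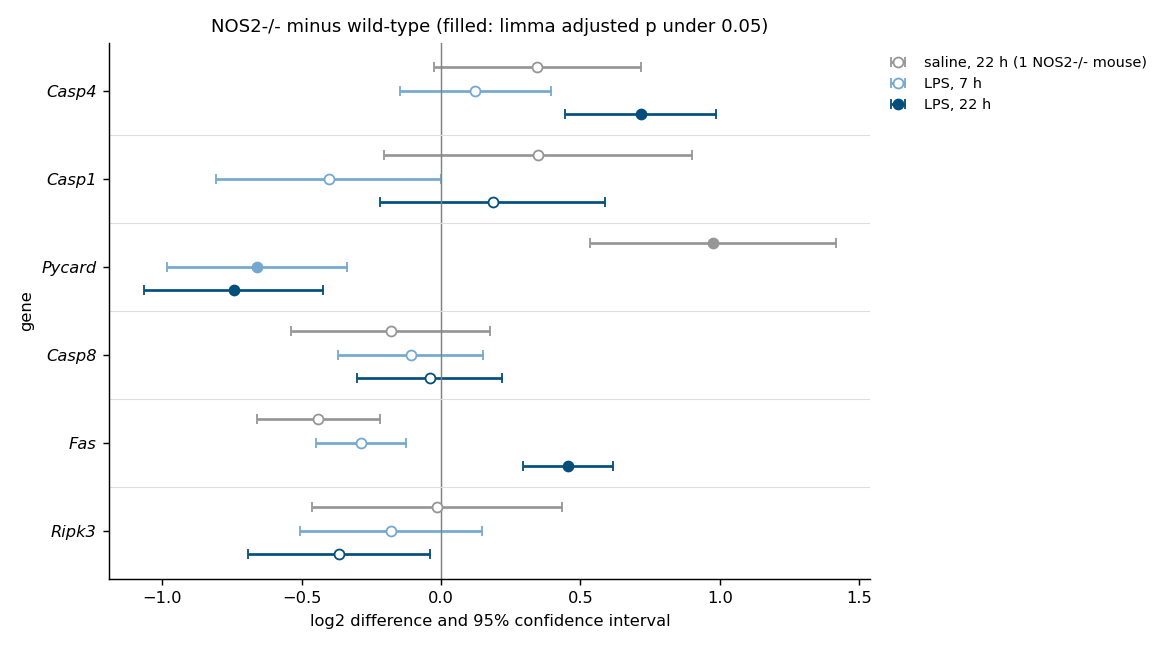
Log2 difference of NOS2-/- minus wild-type lungs (horizontal axis) with its 95% confidence interval from limma, for the 6 genes after saline and at 7 h and 22 h after LPS; filled points passed an adjusted p under 0.05. At 22 h after LPS *Casp4* and *Fas* lie above 0 and *Pycard* below, while *Pycard* of the single NOS2-/- saline mouse lies above 0.

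Between the genotypes, the 6 genes differed in both directions 22 h after LPS. *Casp4* was higher in NOS2-/- than in wild-type lungs by 0.72 log2 units (standard error 0.13, adjusted p = 0.00134) and *Fas* by 0.46 (standard error 0.08, adjusted p = 8.65e-04), while *Pycard* was lower by 0.74 (-0.74, standard error 0.15, adjusted p = 0.00346). For each of these 3 genes no array of one genotype overlapped the other, with the share over all probe sets not counted. Of all probe sets, 9.63% were called higher and 6.81% lower. Without wild-type LPS 22 h replicate 2 the 3 differences were 0.58, 0.46 and -0.85, all called, where 26.6% of probe sets were called in either direction. *Ripk3* had a difference of -0.37 (95% confidence interval -0.69 to -0.04, adjusted p = 0.125). It was -0.53 and called without wild-type LPS 22 h replicate 3 (adjusted p = 0.0206). Without replicate 2 of that group the *Ripk3* difference was -0.30 and not called (adjusted p = 0.183). *Casp1* had one of 0.18 (-0.22 to 0.59, adjusted p = 0.552) and *Casp8* one of -0.04 (-0.30 to 0.22, adjusted p = 0.853).

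At 7 h *Pycard* was lower in NOS2-/- lungs by 0.66 log2 units (-0.66, standard error 0.15, adjusted p = 0.0423), and it was the 1 gene of the 6 called, where 1.48% of probe sets were called lower and 0.526% higher. That call was lost when any 1 of 9 of the 17 arrays was left out, with differences between -0.82 and -0.49. *Fas* had a difference of -0.29 (95% confidence interval -0.45 to -0.12, adjusted p = 0.0604), opposite in sign to that at 22 h, and *Casp1* one of -0.40 (-0.81 to 0.00, adjusted p = 0.223). Without wild-type LPS 22 h replicate 2, which is in neither group but enters the shared spread, *Fas* and *Casp1* were called as well (adjusted p = 0.0109 and 0.0495), and 26.9% of all probe sets were called. *Fas* was also called without wild-type saline replicate 3 (adjusted p = 0.0448). *Casp4* differed by 0.12 at 7 h (-0.15 to 0.39, adjusted p = 0.569).

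After saline the single NOS2-/- mouse had a *Pycard* value above all 4 wild-type mice, by 0.98 log2 units (adjusted p = 0.0258), where 1.13% of probe sets were called higher and 0.274% lower. The call was lost without wild-type saline replicate 1, 2 or 3, with differences between 0.96 and 1.00. The same mouse stood apart in squamous epithelium and striated muscle markers, of which 5 of 7 and 7 of 9 were called higher. Its mean over 4 markers of all leukocytes was 11.41, against 10.98 to 11.18 in wild-type saline mice, with none of them called with all arrays. Over 11 monocyte and macrophage markers its mean was 9.64, against 9.56 to 9.62. Their median difference was 0.05, and none was called. *Fas* had a difference of -0.44 in this mouse (adjusted p = 0.0523). It was called lower without wild-type LPS 22 h replicate 2 (-0.44, adjusted p = 0.0144), where 1.32% of probe sets were, and without wild-type saline replicate 1 (-0.48, adjusted p = 0.0363). The part of this mouse's other tissue in its *Pycard* value was not tested.

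The time course of *Fas* differed between the genotypes. Its change from 7 h to 22 h was higher in NOS2-/- lungs by 0.74 log2 units (interaction test, standard error 0.11, adjusted p = 0.00200), and *Fas* was the 1 gene of the 6 called, where 2.49% of probe sets were called higher and 0.544% lower. The value lay between 0.69 and 0.78 with any 1 array left out, called each time. For *Casp4* the same difference was 0.59 (95% confidence interval 0.21 to 0.98, adjusted p = 0.0908). It was 0.72 and called without wild-type LPS 22 h replicate 1 (adjusted p = 0.0294). Without replicate 2 of that group it was 0.46 and not called (adjusted p = 0.0765). The response to LPS at 22 h was higher for *Fas* in NOS2-/- lungs by 0.90 (adjusted p = 9.50e-04) and lower for *Pycard* by 1.72 (-1.72, adjusted p = 0.00125), where 2.52% and 2.18% of probe sets were called higher and lower. Both of these rest on the single NOS2-/- saline mouse.

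Smooth muscle markers were among those that moved with *Fas* between 7 h and 22 h. Over 6 such markers (*Acta2*, *Myh11*, *Tagln*, *Cnn1*, *Des* and *Notch3*) the mean lay between 10.20 and 10.33 in wild-type lungs at 7 h and between 9.46 and 9.52 at 22 h, with 6 of 6 called lower. In NOS2-/- lungs it lay between 10.02 and 10.36 at 7 h and between 10.05 and 10.14 at 22 h, with 0 of 6 called in limma. Between the genotypes 5 of 6 were called higher in NOS2-/- lungs at 22 h and none lower, where 9.63% and 6.81% of probe sets were. In the difference of the change over time 2 of 6 were called higher, where 2.49% of probe sets were. The median of the 6 was 0.64 there. That last count was 4 of 6 without wild-type LPS 22 h replicate 2, where 4.53% of probe sets were called higher. Unlike *Fas*, these markers did not rise at 7 h in wild-type lungs, where 4 of 6 were called lower than after saline. Other lists held such markers too. From 7 h to 22 h in wild-type lungs, 4 of 6 alveolar type 1 markers were called lower and 2 higher. The same counts were 3 and 0 of 5 club and ciliated markers, and 3 and 2 of 7 fibroblast markers. Over all probe sets 7.68% were lower and 3.15% higher between these times. In the difference of that change between genotypes, 3 of 6, 2 of 5 and 3 of 7 were higher and none lower. Not all lists went this way. From 7 h to 22 h in wild-type lungs 3 of 6 alveolar type 2 and 3 of 7 alveolar macrophage markers were lower and none higher. In the genotype difference, 1 of these 6 was higher and 1 lower, and none of these 7 was called. Of 10 endothelium markers, 5 were higher and 1 lower over time, with 1 higher and 1 lower in the genotype difference. The part of any of these markers in the *Fas* difference was not tested.

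Monocyte and macrophage markers moved in the same direction as *Pycard* between the genotypes after LPS. Over the 11 markers the mean lay between 10.33 and 10.37 in NOS2-/- lungs at 22 h, below the 10.43 to 10.77 of wild-type lungs. Of the 11, 5 were called lower and none higher, where 6.81% of all probe sets were called lower. At 7 h the mean lay between 10.29 and 10.45, below the 10.58 to 10.66 of wild-type lungs. Of the 11, 2 were called lower and none higher, where 1.48% of all probe sets were called lower. Without wild-type LPS 22 h replicate 2, 4 were lower, where 14.1% of probe sets were called lower. Over the 4 markers of all leukocytes 2 were called lower at 22 h and none at 7 h, beside the same shares of all probe sets. Without that replicate 3 were lower at each time, with 1 higher at 7 h. In that fit 15.4% of probe sets were called lower at 22 h, and 14.1% lower and 12.8% higher at 7 h. Their part in the *Pycard* difference was not tested.

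The order of the group means differed from gene to gene. *Casp4*, *Casp1*, *Casp8* and *Fas* were highest in a 7 h group, and *Ripk3* and *Pycard* in wild-type lungs at 22 h. For *Casp4* the neighbours in that order at the top (NOS2-/- and wild-type at 7 h) and at the bottom (the NOS2-/- saline mouse and wild-type saline) did not pass a test of their difference, and each step between did, from 12.02 and 11.89 through 11.39 and 10.67 to 9.05 and 8.70. For *Casp8* only the step from the 7 h groups to the 22 h groups passed, and for *Casp1* none of the steps between neighbours did. The range of group means was 3.31 log2 units for *Casp4*, 1.91 for *Pycard*, 1.70 for *Ripk3*, 1.65 for *Fas*, 1.44 for *Casp1* and 1.02 for *Casp8*.

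Likeness of pattern was measured as the root mean square difference of the centred group means over the 6 groups. The means were not scaled, so a wide range raises this value and a narrow one lowers it. Among the 6 genes themselves, *Casp1* and *Fas* were nearest to each other, at 0.266, and *Ripk3* and *Pycard* to each other, at 0.389. *Casp4*, the gene with the widest range, had *Fas* as the closest at 0.806. Outside them, *Casp8* was nearest to *Atxn7l1* (0.044) and to *Apaf1* (0.048), the gene of the apoptosome scaffold. *Casp1* was nearest to *Spata13* (0.070) and *Fas* to *Trim21* (0.081), a gene of an antibody receptor in the cytosol. *Ripk3* was nearest to *Ctla2a* (0.101) and *Cd33* (0.104), a myeloid surface receptor gene. *Casp4* was nearest to *Marcksl1* (0.144), with group means of 9.29 in wild-type saline mice, 12.20 at 7 h and 11.04 at 22 h, and *Pycard* was nearest to *Cstb* (0.237), a gene of a cathepsin inhibitor. These are descriptions over 6 group means with no test.

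**Figure D4:**
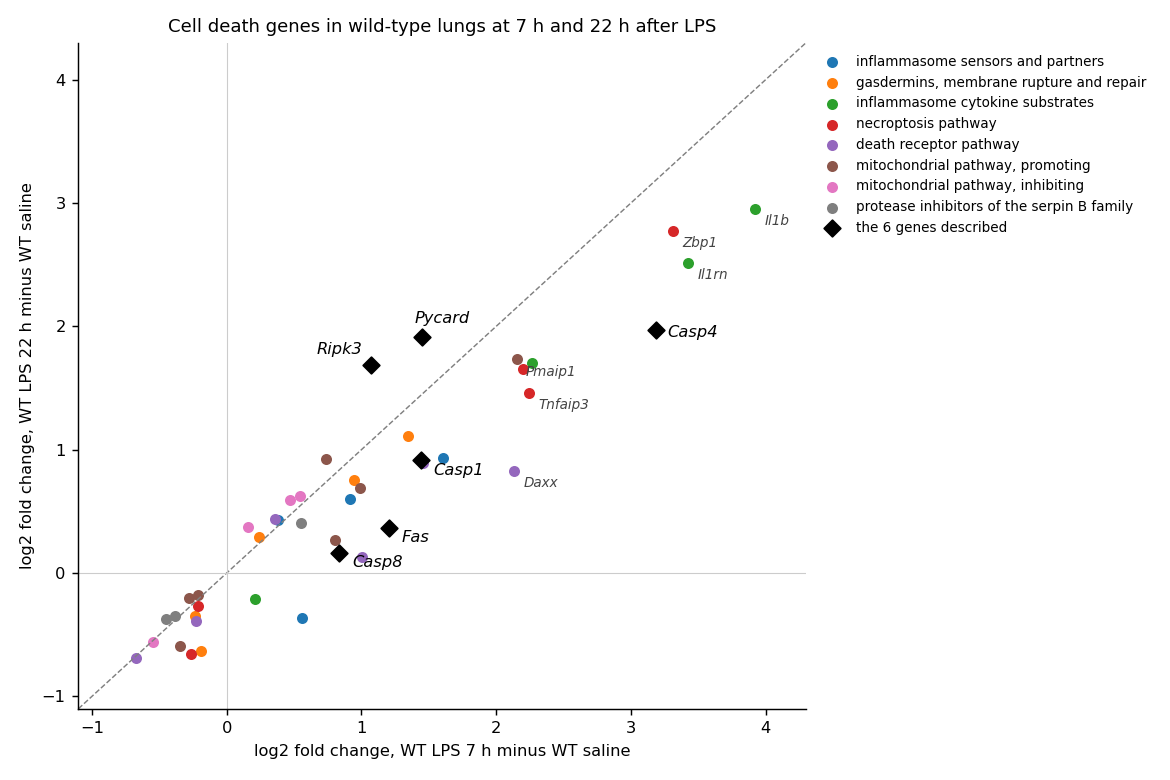
Log2 fold change against saline in wild-type lungs at 7 h (horizontal axis) and 22 h (vertical axis) for the 6 genes (diamonds) and for named genes of 8 cell death lists (circles, coloured by list); the dashed line marks equal change. *Ripk3* and *Pycard* lie above the line, and *Casp4*, *Casp1*, *Fas* and *Casp8* below it, as do *Il1b*, *Zbp1* and *Daxx*.

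Around the caspases, the cytokines that caspase-1 and caspase-11 release and their antagonists rose together in wild-type lungs. Of 5 such genes 5 were called higher at 7 h, and 4 higher and 1 lower at 22 h. Over all probe sets, 17.9% were called lower at 7 h and 20.0% at 22 h, beside the shares called higher given above. Without wild-type LPS 22 h replicate 2 the shares of all probe sets rose to 19.4% higher and 26.7% lower at 7 h and to 19.5% higher and 21.7% lower at 22 h, so the list counts without that replicate are read against these. *Il1b*, the interleukin-1β gene, rose 15.2-fold and 7.74-fold (log2 fold changes 3.92 and 2.95), *Il1rn*, its receptor antagonist, 10.8-fold and 5.72-fold, and *Il18bp*, the decoy of interleukin-18, 4.81-fold and 3.27-fold. *Il18* itself had log2 fold changes of 0.21 at 7 h and -0.21 at 22 h (adjusted p = 0.0444 and 0.0483), the second lost without wild-type LPS 22 h replicate 2. *Il1b* was lower in NOS2-/- than in wild-type lungs at 7 h by 0.82 (-0.82, adjusted p = 0.0234). It was the 1 gene of the 5 called in that comparison, where 1.48% of all probe sets were called lower.

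Of 12 inflammasome sensors and partners, 5 were higher and none lower at 7 h and 3 higher and none lower at 22 h, with 5 higher at 22 h without wild-type LPS 22 h replicate 2 (19.5% of all probe sets). *Mefv*, the pyrin gene, rose by 1.60 and 0.93 log2 units and *Nlrp3*, the sensor gene, by 0.91 and 0.60. *Mefv* was lower in NOS2-/- lungs at 7 h (-0.67, adjusted p = 0.0316), and *Naip2*, a sensor of bacterial secretion proteins, at 22 h (-0.42, adjusted p = 0.0171). Between the genotypes at 7 h, 1 of the 12 was called lower and none higher, where 1.48% and 0.526% of all probe sets were. At 22 h, 2 were called higher and 1 lower, where 9.63% and 6.81% of all probe sets were. Of 8 genes of gasdermins, membrane rupture and membrane repair, 2 were higher and none lower at 7 h and 4 higher and 2 lower at 22 h, and the counts at 7 h were 5 higher and 2 lower without that replicate (19.4% and 26.7% of all probe sets). *Ninj1*, which ruptures the membrane of dying cells, rose 2.54-fold and 2.16-fold, and *Chmp4b*, a gene of membrane repair, 1.92-fold and 1.69-fold. *Pdcd6ip*, another repair gene, was lower by 0.63 at 22 h (-0.63, adjusted p = 5.62e-05).

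Of 14 genes of the necroptosis pathway, 9 were higher and 2 lower at 7 h, and 7 higher and 2 lower at 22 h. *Zbp1*, a nucleic acid sensor that activates RIPK3, rose 9.94-fold and 6.83-fold. *Tnfaip3* and *Birc3*, genes of ubiquitin-editing brakes on death signalling, rose 4.74-fold and 4.60-fold at 7 h and were higher in NOS2-/- than in wild-type lungs at 22 h by 0.74 and 0.52 log2 units (adjusted p = 4.98e-04 and 0.00152). In that comparison 4 of the 14 were called higher and 1 lower, where 9.63% and 6.81% of all probe sets were. Without wild-type LPS 22 h replicate 2 the counts were 4 higher and 2 lower, where 11.2% and 15.4% were. Between 7 h and 22 h in wild-type lungs 6 of the 14 fell and none rose, while *Ripk3* rose.

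Of 12 genes of the death receptor pathway, 5 were higher and 2 lower at 7 h, and 3 higher and 2 lower at 22 h, or 4 higher and 5 lower at 22 h without wild-type LPS 22 h replicate 2 (19.5% and 21.7% of all probe sets). *Cflar*, which restrains caspase-8, rose 2.01-fold at 7 h and had a difference of 0.13 at 22 h (adjusted p = 0.305), as *Casp8* had. *Bid*, which caspase-8 cuts, rose 2.75-fold and 1.86-fold, and *Daxx*, a partner of Fas, 4.39-fold and 1.78-fold. *Daxx* was higher in NOS2-/- lungs at 22 h by 1.12 (adjusted p = 1.10e-05), the same direction as *Fas*. It was the 1 gene of the 12 called in that comparison, where 9.63% of all probe sets were called higher. Without wild-type LPS 22 h replicate 2 the counts were 3 higher and 1 lower, where 11.2% and 15.4% of probe sets were. *Casp6*, an effector caspase gene, was lower at both times (-0.67 and -0.68).

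Of 16 genes that promote the mitochondrial pathway, 6 were higher and 2 lower at 7 h and 3 higher and 1 lower at 22 h. Without wild-type LPS 22 h replicate 2 the counts were 7 higher and 6 lower at 7 h and 6 higher and 2 lower at 22 h, beside the same shares of all probe sets. *Pmaip1*, the NOXA gene, rose 4.45-fold and 3.32-fold. Of 7 genes that inhibit it, 2 were higher and 1 lower at 7 h and 3 higher and 1 lower at 22 h, with *Bcl2l1* higher (0.55 and 0.62) and *Bcl2l2* lower (-0.54 and -0.56). Of 6 serpin B protease inhibitors, 1 was higher and 2 lower at both times. *Serpinb9*, the granzyme B inhibitor gene, was the higher one (0.55 and 0.41). It was lower in NOS2-/- than in wild-type lungs at 22 h (-0.63, adjusted p = 8.50e-04). In that comparison 2 of the 6 were called lower and none higher, where 6.81% and 9.63% of all probe sets were.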

How the data were processed

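Whole-lung RNA of 17 mice was hybridized to MOE430A arrays. The authors deposited 1 log2 expression value per probe set and mouse, made with the affy package, whose version, method and options no source read here states. No further scaling was applied. The 64 control probe sets among 22690 were left out. Symbols came from the array's probe table. Of the probe sets tested, 20380 named 1 gene and 691 several. Where a gene had more than 1, the brightest stood for it.

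The fit used limma 3.58.1 (R 4.3.3) on all arrays, with 1 mean per group (11 residual and 3.75 prior degrees of freedom), with Benjamini-Hochberg adjustment over 22626 probe sets. The fit was tested on simulated data. Members, lists and tests were chosen with earlier results of these data known. Up to 3 genes that rose and up to 2 that fell per list and time could be named. The number of arrays limits the precision, and p values set a difference against the spread between mice. For the single NOS2-/- saline mouse that spread was taken from the other groups. Alternatives were other scalings, filters, thresholds, weights and controls, a replicate block, and each array left out. Replicate numbers did not pair samples (median correlation of deviations -0.016 over 30 pairs).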

Additional observations from a re-analysis of the deposited data

Results flagged for a closer look

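The change of *Fas* from 7 h to 22 h after LPS differed between the genotypes by 0.74 log2 units, higher in NOS2-/- lungs, in an interaction test (limma adjusted p = 0.00200). The response of *Fas* to LPS at 22 h also differed, by 0.90 (adjusted p = 9.50e-04), with the 3 NOS2-/- arrays above the 3 wild-type arrays after LPS and the single NOS2-/- saline mouse below the 4 wild-type saline mice. The response of *Pycard* at 22 h differed by -1.72 (adjusted p = 0.00125), with both orders turned. The differences in response at 22 h share that 1 saline mouse. No array of the 4 wild-type saline mice stood far enough from the others in any of the 6 genes to be picked out. The groups of 3 were not examined for single outlying arrays.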

How the results depend on the processing

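The number of arrays, not a depth of counting, limits these values, and all results on NOS2-/- saline rest on 1 mouse. All 6 genes were called higher in wild-type lungs at 7 h under every alternative run except an added log2 fold of at least 1, where 5 were. With that added fold the calls fell to 3 in wild-type lungs at 22 h against saline, 1 (*Casp4*) from 7 h to 22 h, 2 in NOS2-/- lungs at 7 h, 0 from 7 h to 22 h in NOS2-/- lungs, 0 between genotypes at 7 h, 22 h or after saline, 0 in the genotype difference of the change over time, and 1 (*Pycard*) in that of the response at 22 h. At an adjusted p under 0.01, 0 genes were called between genotypes at 7 h and 0 after saline.

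With the groups of a comparison fitted alone, 2 genes changed from 7 h to 22 h in wild-type lungs, and 3 (*Casp1*, *Fas* and *Pycard*) differed between genotypes at 7 h. Array weights gave 3 at 7 h, 2 (*Fas* and *Pycard*) after saline and 2 (*Casp4* and *Fas*) in the change over time. The mean of all probe sets of a gene gave 0 at 7 h. The replicate number shared across groups did not pair the samples, and with it as a block 0 genes differed between genotypes at 7 h and 0 after saline; at 22 h the block left 3 called (*Casp4*, *Fas* and *Pycard*). Counts with 1 array left out lay between 0 and 3 for the genotypes at 7 h, between 0 and 2 after saline, and between 1 and 2 for the change over time. The cause of these changes was not tested.

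Values that changed sign were mostly near 0 and not called. *Pycard* in NOS2-/- lungs at 7 h was 0.79 against wild-type saline mice. The *Casp8* difference between genotypes at 7 h was 0.0065 after quantile normalization. The *Ripk3* difference after saline was 0.0039 after quantile normalization, 0.052 with array weights and 0.0055 with the block, and lay between -0.077 and 0.12 with 1 array left out. The *Casp8* genotype difference in the change over time was -0.093 after quantile normalization and -0.033 with array weights, and lay between -0.083 and 0.19 with 1 array left out. With 1 array left out, *Casp1* lay between -0.061 and 0.16 from 7 h to 22 h in NOS2-/- lungs, between -0.026 and 0.39 between genotypes at 22 h, and between -0.37 and 0.041 in the genotype difference of the response at 22 h. *Casp8* lay between -0.19 and 0.087 between genotypes at 22 h and between -0.0098 and 0.27 in the response, and *Pycard* between -0.25 and 0.079 in the change over time.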
